A study of Mus musculus with 8 samples.

Results

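The genes described here are 43 genes of glutathione and redox biology, out of 18193 genes measured on 8 Affymetrix mouse expression arrays. They were chosen by symbol in the array annotation: glutathione S-transferases (Gst classes alpha, mu, pi, theta, omega, kappa and zeta), microsomal transferases (Mgst), glutathione peroxidases (Gpx), and 12 named genes of glutathione synthesis, thiol reduction and superoxide removal. Each gene is represented by its brightest probe set, and 19 of the 43 had more than 1 probe set. The RNA came from mouse embryonic fibroblasts of the C57BL/6 strain, used at passage 13. Control (wild type) fibroblasts and Stat5a/b-null fibroblasts, labelled as null for both STAT5 genes, went through 5 hours of starvation. They then received growth hormone (GH), at 1 ug/ml, or none, and were taken 2 hours later. Each of the 4 combinations of genotype and GH was measured on 2 arrays, and passage and starvation were shared by all. The labels call the arrays biological replicates without naming the embryos or cultures behind them, so p-values here measure only array-to-array spread, which may be technical. The sources used here give neither the deleted part of the STAT5 genes nor the number of embryos.

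Glutathione is a small thiol peptide that cells keep in its reduced form as a buffer against oxidants. Transferases join it to reactive electrophiles, peroxidases use it to reduce hydrogen peroxide and lipid peroxides, and glutathione reductase restores it with NADPH. Many genes of this system are activated by the transcription factor NRF2, which Nfe2l2 encodes, through antioxidant response elements, and KEAP1 holds NRF2 back in unstressed cells. Growth hormone signals through JAK2 to STAT5A and STAT5B.

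All values are log2 expression values, and a difference of 1 is a 2-fold change. The arrays carried no detection call, so a group mean under 6.10, the first quartile over all genes, is called dim here, and no fold is given against it. Of the 43 genes, 38 were above that level in all 4 groups, Gsta2, Gsta3 and Gstt4 were below it in all 4, and Gpx7 and Gstt2 were below it in the null groups. No gene was left out for a low value. Genes were called in limma where the p-value, adjusted by Benjamini-Hochberg over all 18193 genes, was below 0.05, and errors on differences are limma standard errors (SE).

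The targeted genes and the cell type markers were examined first. Stat5a read 7.83 and 7.15 on the control arrays without GH and 5.73 and 5.59, a dim level, on the null arrays without GH. Stat5b was lower in null cells without GH by a log2 difference of -0.69 ± 0.09, but its means of 7.32 and 6.99 in the null groups stayed above the dim level. Whether these probe sets lie in the deleted part is not known from the labels. All 12 fibroblast markers were above the first quartile in every group. Of these, 5 were higher and 1 lower in null cells in each GH state, with Lum at 4.32 and 4.37, Dcn at 3.57 and 3.64, Pdgfra at 3.80 and 3.03 and Fn1 at -0.97 and -0.74. In control cells none of the 10 macrophage and leukocyte markers was dim, and their log2 summed level lay between 14.6 and 14.7 without GH and between 14.7 and 14.8 with GH. On the null arrays that sum was between 11.1 and 11.2 without GH and between 11.3 and 11.4 with GH, and each of the 10 was called lower there with and without GH. Ptprc, which encodes the leukocyte antigen CD45, averaged 9.20 in control and 4.26 in null cells without GH, and Itgam (6.25 and 4.38) was dim in null cells too, as were Tyrobp and Adgre1 (6.02 and 5.72) with GH. In bulk RNA, fewer cells of a type and less RNA per cell cannot be told apart, and the part of these markers in the genotype differences below was not tested.

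Without GH, 26 of the 43 genes differed between null and control cells (60.5%), where 47.5% of all genes did. Of these, 15 were higher in null cells (24.8% of all genes were) and 11 lower (22.7% of all genes were). The median log2 difference of the 43 genes was 0.06, and that of all genes was 0.03. With GH, 24 of the 43 differed (55.8%, against 45.3% of all genes), 12 of them higher in null cells and 12 lower, where 22.2% of all genes were higher and 23.1% lower. The shares of all genes called higher and lower apply equally to the marker counts above and to the counts by role below. In both GH states 11 genes were higher and 11 lower, while 6 differed in 1 state and 15 in neither. The genes called in both states were 51.2% of the 43, against 37.5% of all genes. Of all 18193 genes, 4073 were dim in both groups without GH, as were 3 of the 43. With dim genes left out, 59.8% of the genes kept were called without GH and 57.8% with GH. That filter, on the mean over all arrays, also dropped Gsta2, Gsta3, Gstt2 and Gstt4 from the 43. Of the genes kept from the 43, 26 and 25 were then called, so these counts are not out of 43. The part of dim genes in the higher shares of the 43 was not tested further. The genotype comparisons without and with GH use separate arrays of the same 2 genotypes. Log2 differences of at least 1 in size in both GH states were found for Mgst2, Gstt1 and Gstm1 (higher in null cells) and for Gpx7, Gpx3, Gstk1, Gss and Nqo1 (lower). Gpx7 was dim in null cells, and the share of all genes with differences of this size was not counted.

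**Figure D1:**
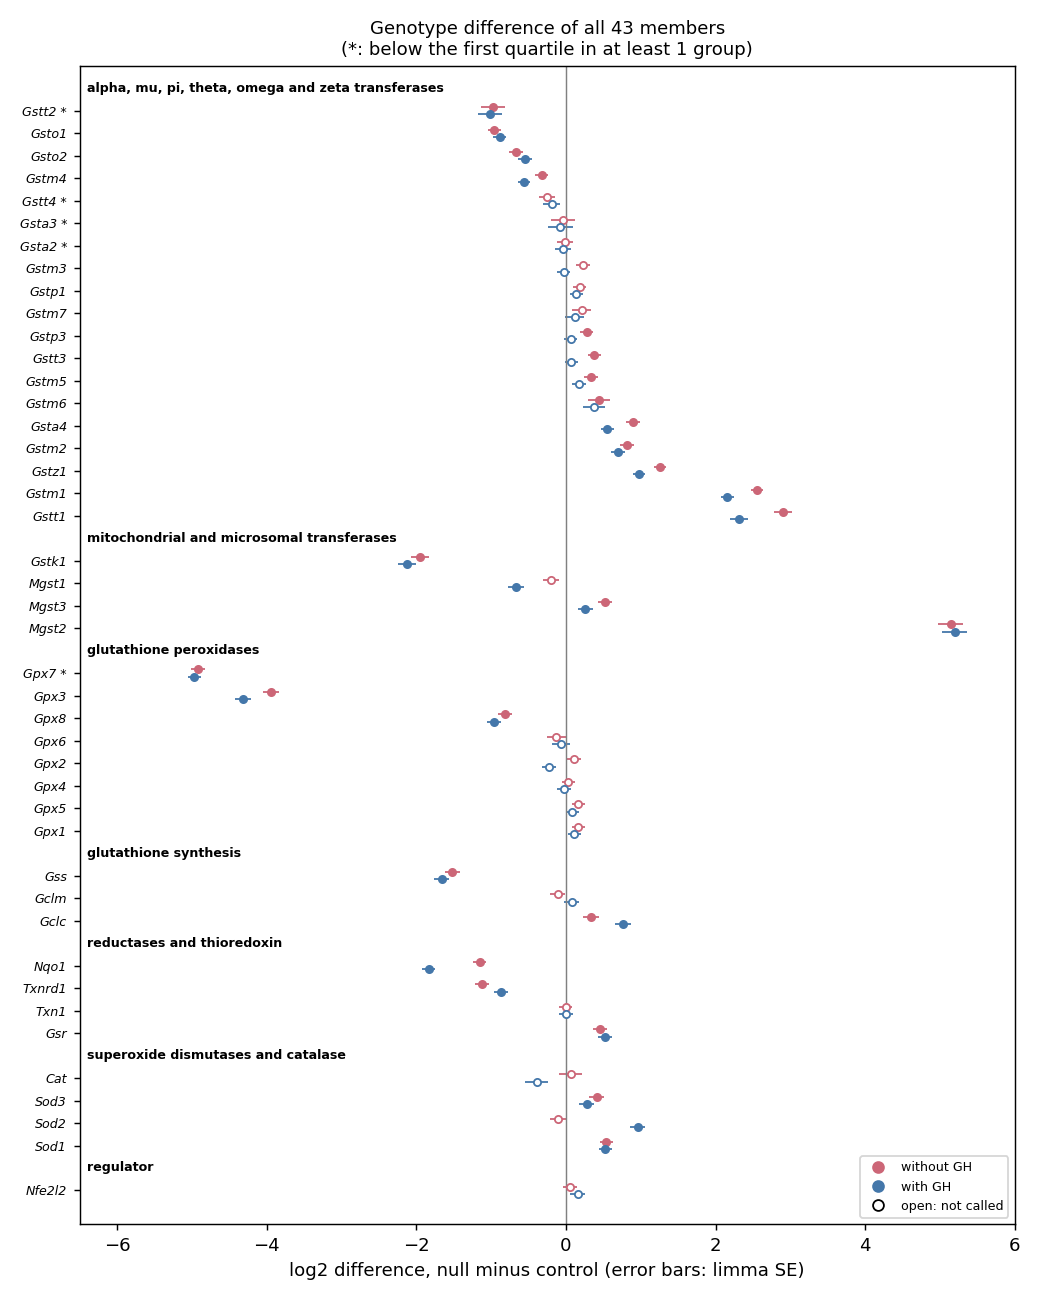
Log2 difference between null and control cells (horizontal axis) for each of the 43 genes, grouped by role. Red points are cells without GH and blue points cells with GH, bars are limma SE, open points were not called, and an asterisk marks a gene below the first quartile in at least 1 group. Mgst2 lies farthest to the right (5.14 and 5.20), and Gpx7, Gpx3 and Gstk1 lie farthest to the left.

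The cytosolic transferases, of the alpha, mu, pi, theta, omega and zeta classes, went both ways. Of 19 measured, 9 were higher and 4 lower in null cells without GH, and 5 were higher and 4 lower with GH. Gstt1, a theta-class enzyme that acts on small halogenated compounds, read 6.86 and 7.04 on control arrays without GH and 7.36 and 7.07 with GH, against 9.78 and 9.91 on null arrays without GH and 9.43 and 9.64 with GH. Every null array lay above every control array, and Gstt1 was 7.46-fold higher without GH (2.90 ± 0.12, adjusted p = 1.46e-09) and 4.99-fold higher with GH (2.32 ± 0.12).

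Gstm1, a mu-class enzyme that conjugates many foreign electrophiles, read 9.35 and 9.34 in control cells without GH, 9.67 and 9.68 with GH, 11.93 and 11.86 in null cells without GH and 11.81 and 11.86 with GH. The genotypes did not overlap, with a 5.86-fold difference without GH (2.55 ± 0.08, adjusted p = 2.17e-10) and a 4.46-fold difference with GH (2.16 ± 0.08). The other 3 probe sets of Gstm1 gave differences without GH of 2.65, 1.60 and 1.53. Members of the mu class are close in sequence, and the Gstm1 and Gstm3 probe sets used carry suffixes that mark possible binding of related transcripts, so single mu-class values are uncertain in that respect. Gstz1, the zeta-class enzyme of tyrosine breakdown (maleylacetoacetate isomerase), read 8.93 and 8.89, then 8.86 and 8.90 with GH, in control cells. In null cells it read 10.16 on both arrays without GH and 9.85 and 9.87 with GH. It was 2.39-fold higher in null cells without GH (1.26 ± 0.08, adjusted p = 9.61e-08) and 1.97-fold higher with GH.

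Gsta4, an alpha-class enzyme that conjugates the lipid peroxidation product hydroxynonenal, read 10.98 and 11.05 in control cells without GH, 11.05 and 11.01 with GH, 11.94 and 11.88 in null cells without GH and 11.53 and 11.65 with GH. It was 1.86-fold higher in null cells without GH (0.90 ± 0.09) and 1.47-fold higher with GH (0.55 ± 0.09), with no overlap of the genotypes. Gstm2 was also higher in both GH states (0.81 and 0.70).

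The omega class and single members of the mu and theta classes were lower in null cells. Gsto1, which reduces dehydroascorbate and methylated arsenic compounds, read 14.26 and 14.30 in control cells without GH, 14.29 and 14.25 with GH, 13.34 and 13.29 in null cells without GH and 13.33 and 13.44 with GH. The difference was 1.95-fold without GH (-0.96 ± 0.09, adjusted p = 1.46e-06) and 1.85-fold with GH (-0.89 ± 0.09), and its paralog Gsto2 was lower too (-0.67 and -0.55). Gstt2 read 6.24 and 6.36 in control cells without GH and 6.63 and 6.02 with GH, close to the dim level, and between 5.19 and 5.42 on all 4 null arrays. It was called lower in both GH states (adjusted p = 0.000253 and 0.000195), with no fold given. Gstm4 read 8.58 on both control arrays without GH, 8.49 and 8.50 on those with GH, 8.27 and 8.24 on the null arrays without GH and 7.90 and 7.97 with GH. It was lower in null cells in both states (-0.33 ± 0.08 and -0.56 ± 0.08).

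Neighbouring genes of 1 class moved in opposite directions in some cases and in the same direction in others. In the RefSeq gene order of the mouse assembly GRCm38.p6, the 7 mu-class genes follow each other on chromosome 3 with no other protein-coding gene between them, in the order Gstm5, Gstm7, Gstm6, Gstm3, Gstm2, Gstm1 and Gstm4. Gstm1 and Gstm4 are immediate neighbours, and averaged over the GH states their log2 differences were 2.35 and -0.44. Gstm2, next to Gstm1 on its other side, was higher like it, with an average of 0.76. The theta genes follow each other on chromosome 10 in the order Gstt3, Gstt1, Gstt4 and Gstt2, with average differences of 0.23 for Gstt3 and 2.61 for Gstt1. Gstt4 was dim in every group and not called, and Gstt2 was lower in null cells. Gsto1 and Gsto2 are neighbours on chromosome 19, and both were lower.

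Smaller differences without GH were called for Gstt3 (0.38 ± 0.08), Gstm5 (0.34 ± 0.09), Gstm6 (0.45 ± 0.15) and Gstp3 (0.28 ± 0.09), and none of these was called with GH on all arrays. Gstm6 was at 0.37 ± 0.15 with GH and was called without control replicate 3 with GH or without any 1 of the 4 arrays lacking GH (adjusted p = 0.0318 to 0.0382). The Gstm5 call was lost without control replicate 2 or null replicate 2 of the cells without GH (adjusted p = 0.0618 to 0.0691). The Gstp3 call was lost without control replicate 3 or null replicate 2 (adjusted p = 0.102 to 0.153). The Gstm6 call was lost without either of those arrays or either null array with GH (adjusted p = 0.0532 to 0.276), and its difference was 0.24 or 0.26 without control replicate 3 or null replicate 2. Gstp1, the pi-class transferase found in most tissues, was not called in either state (0.18 ± 0.09 and 0.14 ± 0.09), nor were Gsta2, Gsta3, Gstm3, Gstm7 and Gstt4. Gstm3 without GH passed the test without null replicate 3 lacking GH (0.29, adjusted p = 0.045), and the dim Gstt4 passed it without null replicate 2 with GH in both states and without null replicate 3 with GH in cells lacking GH. For Gstm7 a second probe set was higher in null cells in both states (0.87 and 0.81), with control means of 5.92 and 5.77, a dim level. The second Gstm3 probe set, also dim in control cells without GH (5.77), was higher in null cells in that state. Its difference there was 0.35 (adjusted p = 0.0164 in a limma fit of all probe sets), and it was not called with GH (0.25).

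**Figure D2:**
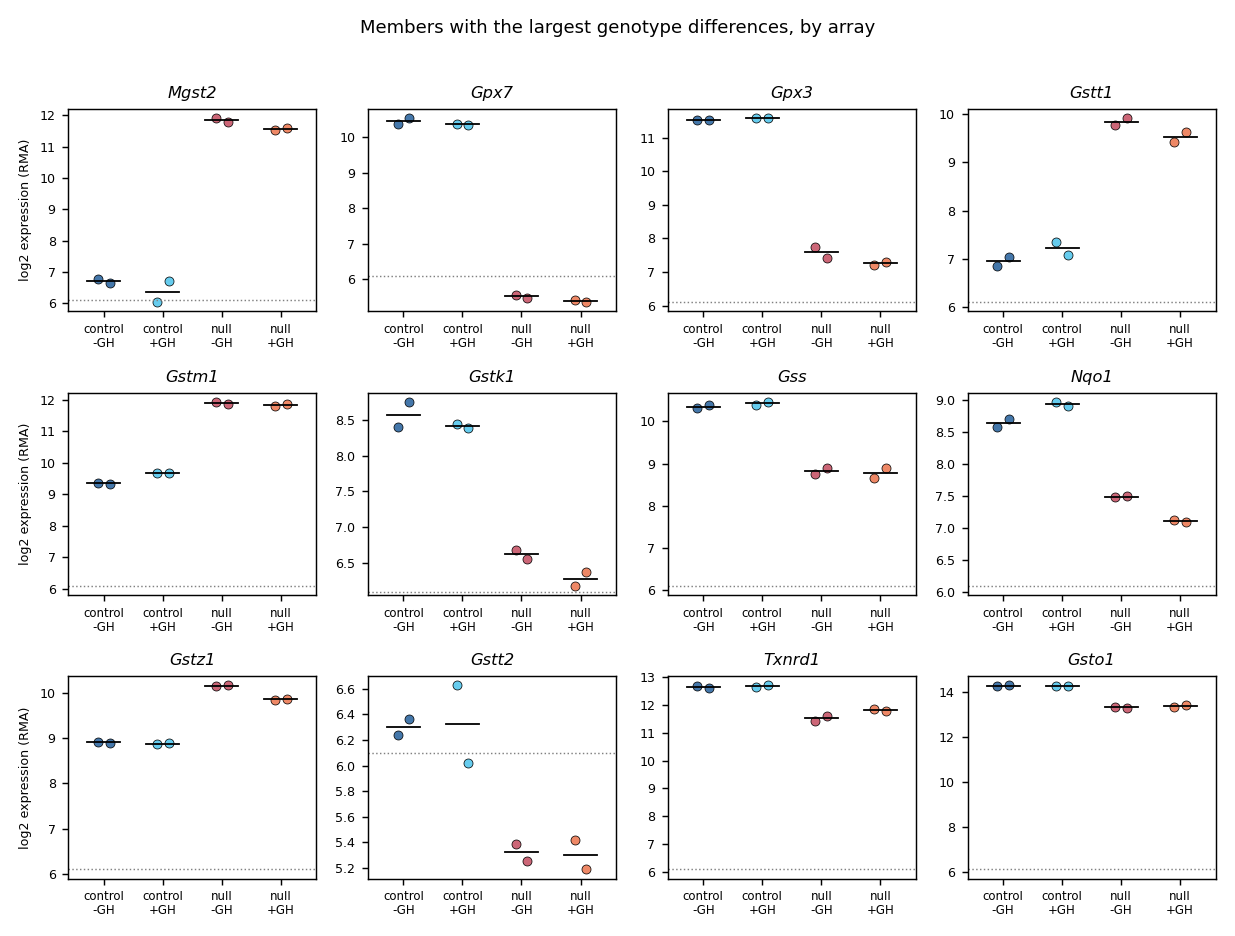
Log2 expression on each array (points) for the 12 called genes with the largest difference averaged over the GH states, with 2 arrays in each of the 4 groups, bars at group means and a dotted line at 6.10, the first quartile over all genes. The null arrays lie above the control arrays for Mgst2, Gstt1, Gstm1 and Gstz1 and below them for the other 8. Their separation in every panel follows from choosing genes by the size of this difference.

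Of the 4 membrane and organelle transferases, 2 were higher and 1 lower in null cells without GH, and 2 were higher and 2 lower with GH. Mgst2, a microsomal transferase of the leukotriene C synthase family, read 6.78 and 6.65 in control cells without GH, 6.03 and 6.71 with GH, 11.91 and 11.80 in null cells without GH and 11.53 and 11.61 with GH. The null arrays were all high, and the control arrays lay near the dim level. The difference was 35.4-fold without GH (5.14 ± 0.17, adjusted p = 1.98e-10) and 36.7-fold with GH (5.20 ± 0.17), and since the control level is that low these folds are imprecise. Gstk1, the kappa-class enzyme of mitochondria and peroxisomes, read 8.39 and 8.75 in control cells without GH and 8.44 and 8.38 with GH. In null cells it read 6.69 and 6.56 without GH and 6.18 and 6.38 with GH. It was 3.85-fold lower without GH (-1.95 ± 0.12, adjusted p = 5.52e-08) and 4.38-fold lower with GH, and the genotypes did not overlap.

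Mgst1, an abundant transferase of the endoplasmic reticulum and outer mitochondrial membrane, was lower in null cells with GH (-0.67 ± 0.10, adjusted p = 0.00018). Without GH the difference was -0.20 ± 0.10 and was not called, and the difference between the GH states was not called either (adjusted p = 0.103). Mgst3 was higher without GH (0.52 ± 0.10, adjusted p = 0.000649) and at 0.26 ± 0.10 with GH (adjusted p = 0.0465). The second Mgst3 call was lost when any array of control cells with GH or of null cells was left out (adjusted p = 0.0505 to 0.237), and with the mean of its probe sets the difference was 0.10 (adjusted p = 0.336).

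Of the 8 glutathione peroxidases, 3 were lower in null cells both with and without GH, and none was higher. Of all genes, 22.7% were lower without GH and 23.1% with GH. Gpx7, a peroxidase of the endoplasmic reticulum that takes part in oxidative protein folding, read 10.37 and 10.53 in control cells without GH and 10.37 and 10.34 with GH. In null cells it read 5.57 and 5.48 without GH and 5.42 and 5.36 with GH, below the dim level on every array, so it was called lower (adjusted p = 2.27e-12 and 2.09e-12) with no fold given. Gpx3, the secreted peroxidase of blood plasma, read 11.54 and 11.52 in control cells without GH and 11.57 on both arrays with GH. Its values in null cells were 7.73 and 7.43 without GH and 7.22 and 7.29 with GH. All 4 null arrays lay far below the control arrays, by 15.4-fold without GH (-3.95 ± 0.10, adjusted p = 3.02e-11) and 19.9-fold with GH (-4.32 ± 0.10). Gpx8, the other peroxidase of the endoplasmic reticulum, was 1.76-fold lower without GH (-0.82 ± 0.09) and 1.94-fold lower with GH (-0.96 ± 0.09).

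The selenoenzymes Gpx1 and Gpx4 were not called in any comparison. Gpx1, the main cytosolic peroxidase, read 13.79 and 13.90 in control cells without GH, 13.76 and 13.75 with GH, 14.02 and 14.01 in null cells without GH and 13.84 and 13.89 with GH (differences of 0.17 ± 0.09 and 0.11 ± 0.09). Gpx4, which reduces lipid peroxides within membranes and guards against ferroptosis, read 13.65 and 13.72, then 13.72 and 13.60 with GH, in control cells, and 13.77 and 13.66, then 13.61 and 13.65 with GH, in null cells. Its differences of 0.03 ± 0.09 and -0.02 ± 0.09 lay within their error. Gpx2, Gpx5 and Gpx6, known from gut, epididymis and olfactory tissue, read between 6.28 and 6.95 on all arrays and were not called.

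Glutathione is made in 2 steps, and the genes of these steps differed in direction. Gclc encodes the catalytic subunit of glutamate-cysteine ligase, the rate-limiting enzyme, and read 10.15 and 10.24 in control cells without GH, 10.36 and 10.68 with GH, 10.54 and 10.52 in null cells without GH and 11.25 and 11.30 with GH. It was higher in null cells, by 0.33 ± 0.11 without GH (adjusted p = 0.0228) and 0.76 ± 0.11 with GH (1.69-fold, adjusted p = 7.77e-05). The first of these calls was lost without control replicate 2, null replicate 2 or null replicate 3 of the cells without GH (adjusted p = 0.0716 to 0.0973), and the second probe set of Gclc was higher in both states (0.54 and 0.88). Gclm, the modifier subunit of the same enzyme, read 11.06 and 11.03 in control cells without GH, 11.02 and 11.12 with GH, 11.00 and 10.88 in null cells without GH and 11.04 and 11.26 with GH, with overlapping groups and no call. Gss, the synthetase of the final step, read 10.32 and 10.38 in control cells without GH and 10.40 and 10.46 with GH. In null cells it read 8.76 and 8.90 without GH and 8.65 and 8.88 with GH. Gss was 2.87-fold lower without GH (-1.52 ± 0.10, adjusted p = 9.77e-08) and 3.17-fold lower with GH (-1.66 ± 0.10), and its second probe set gave -1.55 and -1.56.

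Among the reductases, Nqo1 and Txnrd1 were lower and Gsr higher in null cells. Nqo1, which detoxifies quinones and is a widely used NRF2 target, read 8.58 and 8.71 in control cells without GH, 8.97 and 8.90 with GH, 7.48 and 7.50 in null cells without GH and 7.12 and 7.09 with GH. The genotypes did not overlap, and the difference was 2.22-fold without GH (-1.15 ± 0.09, adjusted p = 3.46e-07) and 3.56-fold with GH (-1.83 ± 0.09). Txnrd1, the cytosolic selenoenzyme that keeps thioredoxin reduced, read 12.66 and 12.59 in control cells without GH, 12.65 and 12.69 with GH, 11.42 and 11.60 in null cells without GH and 11.83 and 11.77 with GH. It was 2.17-fold lower without GH (-1.12 ± 0.09) and 1.83-fold lower with GH (-0.87 ± 0.09), and all 3 of its probe sets were lower. Its substrate thioredoxin, Txn1, read between 13.69 and 13.82 on all 8 arrays, with differences far within their SE of 0.09 in both states. Gsr, glutathione reductase, read 10.08 and 9.96 in control cells without GH, 9.95 and 10.06 with GH, 10.50 and 10.46 in null cells without GH and 10.43 and 10.62 with GH, and was higher by 0.46 ± 0.10 (adjusted p = 0.00171) and 0.52 ± 0.10.

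The superoxide dismutases were higher in null cells in part, and the catalase call depended on the setting. Sod1, the cytosolic copper-zinc enzyme, read 13.54 and 13.59 in control cells both without GH and with it, 14.13 and 14.08 in null cells without GH and 14.05 and 14.13 with GH. The difference was 1.46-fold without GH (0.54 ± 0.09, adjusted p = 0.000173) and 1.44-fold with GH. It was called for the brightest 2 of 5 probe sets. Sod3, the extracellular enzyme, was higher without GH (0.41 ± 0.10, adjusted p = 0.005) and at 0.28 ± 0.10 with GH (adjusted p = 0.0427), a call lost without either control array with GH, without null replicate 3 with GH or without either null array lacking GH (adjusted p = 0.0534 to 0.356). That difference was 0.13 without null replicate 3 with GH and 0.42 without null replicate 2 with GH. Cat, the peroxisomal enzyme that splits hydrogen peroxide, read 10.80 and 11.28 in control cells without GH, 11.38 and 11.04 with GH, 11.01 and 11.19 in null cells without GH and 10.90 and 10.73 with GH. Its groups overlapped without GH, and neither difference was called for the probe set used (0.06 ± 0.15 and -0.39 ± 0.15), although its second probe set was lower with GH (-0.51). With GH, Cat passed the test without control replicate 3 with GH (-0.56, adjusted p = 0.0171) or without either control array lacking GH (adjusted p = 0.0158). It also passed with the mean of its probe sets (-0.45, adjusted p = 0.00611), in a fit of only the 4 arrays compared (adjusted p = 0.0185), after quantile normalization (adjusted p = 0.0375) and with dim genes left out (adjusted p = 0.0426).

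With GH for 2 hours, none of the 43 genes was called in control cells by the probe set used, where 2.62% of all genes were called in limma (1.72% higher and 0.896% lower). At an unadjusted limma p under 0.05 there were 8 of the 43, a larger share than the 10.3% of all genes. The differences ran from -0.34 (Mgst2) to 0.39 (Sod3), and the lowest adjusted p was 0.0692, for Gstm1 (0.33 ± 0.08). In a fit of all probe sets, the second probe set of Gstm1 was higher with GH (0.42, adjusted p = 0.0316), as was that of Gclc (0.46, adjusted p = 0.0215). Sod3 passed the test without either null array with GH (adjusted p = 0.049), and Mgst2 was called lower, at -0.68, without control replicate 3 with GH.

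In null cells GH changed 7 of the 43 genes (16.3%, against 11.7% of all genes): 3 rose (5.36% of all genes did) and 4 fell (6.35% of all genes did). With dim genes left out, 10 of the genes kept from the 43 were called, and 17.9% of all genes kept. The filter dropped Gsta2, Gsta3, Gstt2 and Gstt4 from the 43. Sod2, the mitochondrial manganese superoxide dismutase and a known target of NF-kappaB, rose most. It read 11.45 and 11.69 in control cells without GH, 11.92 and 11.88 with GH, 11.53 and 11.40 in null cells without GH and 12.80 and 12.92 with GH. The null arrays with GH lay above all other arrays, and the rise in null cells was 2.63-fold (1.39 ± 0.10, adjusted p = 3.62e-06), while the difference in control cells was 0.33 ± 0.10 (adjusted p = 0.176). All 4 Sod2 probe sets rose in null cells, by 1.11 to 2.16. Between the genotypes, Sod2 was not called without GH (-0.10 ± 0.10, adjusted p = 0.452) and was 1.94-fold higher in null cells with GH (0.96 ± 0.10, adjusted p = 7.96e-06). Without GH, another 2 of its 4 probe sets were lower in null cells (-0.30, adjusted p = 0.0454, and -0.51, adjusted p = 0.00418), and the mean of the 4 was at -0.21 (adjusted p = 0.0421).

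Gclc rose 1.68-fold in null cells under GH (0.75 ± 0.11, adjusted p = 0.000877), and its second probe set rose too (0.80). In control cells its difference was 0.32 ± 0.11 (adjusted p = 0.218) for the probe set used and 0.46 (adjusted p = 0.0215) for the second, and the difference between the genotypes was not called (0.43 ± 0.15, adjusted p = 0.151). Nfe2l2, which encodes NRF2, read 10.88 and 11.03 in control cells without GH, 11.30 and 11.27 with GH, 10.94 and 11.08 in null cells without GH and 11.49 and 11.39 with GH. Both arrays with GH lay above both arrays without it in each genotype. The rise was called in null cells (0.43 ± 0.10, adjusted p = 0.0127), the difference in control cells was 0.33 ± 0.10 (adjusted p = 0.134), and the interaction was 0.10 ± 0.14 (adjusted p = 0.781). The second probe set of Nfe2l2, near the dim level in null cells (means of 6.25 without GH and 6.05 with GH), was not called there (-0.20). With the mean of both probe sets the difference was 0.12 (adjusted p = 0.341). The Nfe2l2 call was also lost without null replicate 2 with GH or null replicate 2 without GH (adjusted p = 0.102 to 0.118).

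The 4 genes that fell in null cells under GH were Nqo1 (-0.39 ± 0.09, adjusted p = 0.0147), Gsta4 (-0.32 ± 0.09, adjusted p = 0.0357), Gstm4 (-0.32 ± 0.08, adjusted p = 0.0296) and Gstz1 (-0.30 ± 0.08, adjusted p = 0.035). The Nqo1 call was lost without any 1 of the 4 null arrays (adjusted p = 0.0647 to 0.0846). Those of Gsta4, Gstm4 and Gstz1 were lost without any 1 of the null arrays or of the control arrays with GH (adjusted p = 0.0527 to 0.215 over the 3 genes). Without single arrays the count of 7 became 2 (without null replicate 2, in either GH state), 3 (without null replicate 3 with GH) or 4 (without null replicate 3 lacking GH, or without either control array with GH). The share of all genes called fell from 11.7% as well, to 4.5% and 5.41% for the count of 2, 5.68% for the count of 3, and 7.39% and 10.2% for the count of 4. Sod2 and Gclc remained called in each of these fits. Gpx3 passed the test without null replicate 3 lacking GH (-0.48, adjusted p = 0.0211), and Gstk1 without either control array lacking GH (-0.34, adjusted p = 0.0382).

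**Figure D3:**
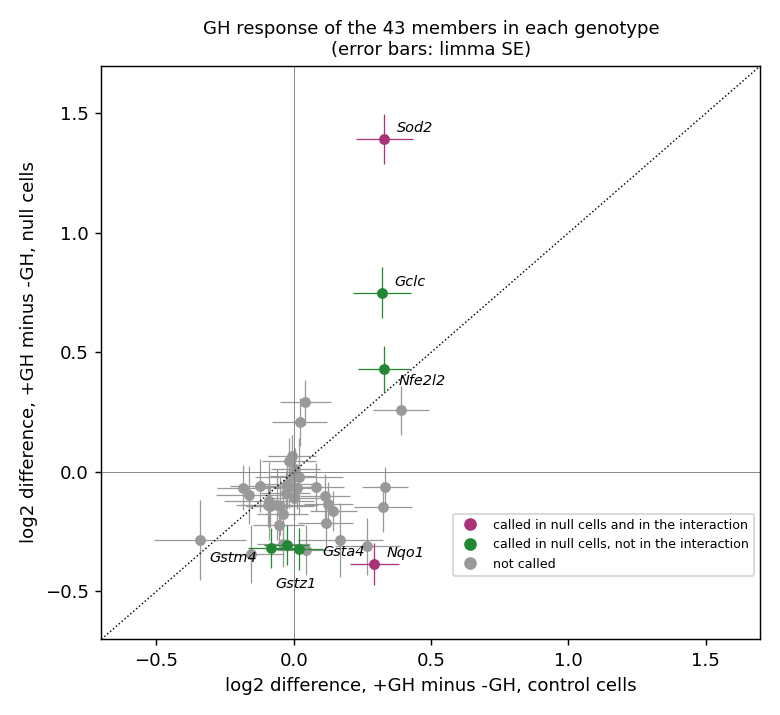
GH response of the 43 genes in control cells (horizontal axis) and null cells (vertical axis), as log2 differences with limma SE; the dotted line marks equal responses. Sod2 (0.33 and 1.39) lies far above the line and Nqo1 (0.29 and -0.39) below it, and the 7 named genes were called in null cells.

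**Figure D4:**
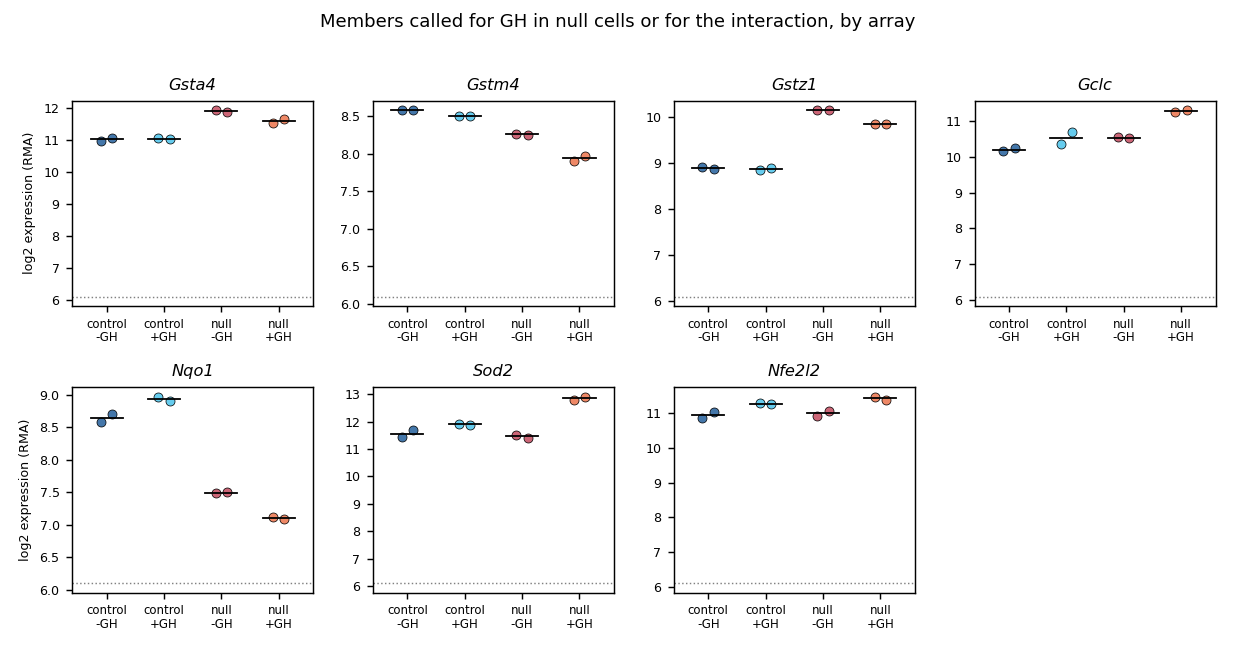
Log2 expression on each array (points) for the 7 genes called for GH in null cells, with 2 arrays in each of the 4 groups, bars at group means and a dotted line at 6.10, the first quartile over all genes. Sod2, Gclc and Nfe2l2 are higher on null arrays with GH than on those without, and Nqo1, Gsta4, Gstm4 and Gstz1 are lower.

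The response to GH differed between the genotypes for 2 of the 43 genes (4.65%, against 5.16% of all genes), 1 higher in null cells (2.83% of all genes) and 1 lower (2.33% of all genes). For Sod2 the response in null cells exceeded that in control cells by 1.06 ± 0.15 on the log2 scale (adjusted p = 0.00118), and all 4 probe sets gave the same direction past the test (0.81 to 1.64). For Nqo1 the response was 0.29 ± 0.09 in control cells (adjusted p = 0.147) and -0.39 ± 0.09 in null cells, a difference of -0.68 ± 0.12 (adjusted p = 0.00785). Gstt1 had the next lowest adjusted p (-0.58 ± 0.17, adjusted p = 0.0762) and passed the test without control replicate 3 with GH (-0.72, adjusted p = 0.0417).

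The antioxidant response element core was searched in the promoters, as the letters TGACNNNGC on either strand of windows from 250 bases before to 50 bases after each gene start, taken from RefSeq (GRCm38.p6). Of the 43 genes, 38 had a window, and 8 of these 38 (21.1%) held a match, against 14.0% of all 27025 genes with a window. Some genes had several windows. Counted by window, 8 of the 52 windows of these genes (15.4%) held a match, against 12.4% of all 32851 windows. Among the 8 were genes higher in null cells (Sod1, and Gstm5 without GH) and genes lower in null cells (Txnrd1, and Mgst1 with GH). Nfe2l2, also among them, was called higher with GH in null cells (0.43). In control cells it was at 0.33, not called, and the null call was lost with the mean of its probe sets. The others, Gclm, Gsta3 and Gstm7, were not called. The stretches around the match are shown for 4 genes that differ in direction, from 5′ to 3′ on the strand of the gene, with the match in capitals. A match is a description of these letters, and no use of the site was measured.
Txnrd1, lower in null cells, chr10:82859094-82859142, + strand: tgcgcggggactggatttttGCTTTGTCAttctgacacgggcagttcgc
Mgst1, lower in null cells with GH, chr6:138140451-138140499, + strand: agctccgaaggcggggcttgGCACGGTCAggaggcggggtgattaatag
Sod1, higher in null cells, chr16:90220686-90220734, + strand: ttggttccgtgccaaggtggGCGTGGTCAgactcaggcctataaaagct
Nfe2l2, raised by GH in null cells, chr2:75704875-75704913, - strand: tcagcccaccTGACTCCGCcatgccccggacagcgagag

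Other genes of the same pathways were read from 4 further lists. For comparison with their counts, 24.8% of all genes were higher and 22.7% lower in null cells without GH, and 22.2% and 23.1% with GH. Of 28 other NRF2 pathway genes, 8 were higher and 10 lower in null cells without GH, and 6 and 10 with GH, with median differences of 0.03 and -0.03. Pir, an iron-binding nuclear protein, was higher (1.93 ± 0.10 and 1.58 ± 0.10). Keap1, which encodes KEAP1, was higher too (1.00 ± 0.09 and 0.97 ± 0.09), and was named after its values were seen. Maff was higher with GH (1.29 ± 0.10) and not called without it (-0.03 ± 0.10). Ephx1, the microsomal epoxide hydrolase, was lower (-1.86 ± 0.09 and -2.08 ± 0.09), as was Taldo1 of the pentose phosphate pathway (-1.46 ± 0.10 and -1.72 ± 0.10), both named after their values were seen. Of 18 other glutathione metabolism genes, 4 were higher and 7 lower without GH, and 3 and 6 with GH (medians 0.07 and -0.06). Chac1, which breaks glutathione down in stressed cells, was lower (-2.35 ± 0.10 and -1.20 ± 0.10). Of 21 other peroxiredoxin, thioredoxin and glutaredoxin genes, 7 were higher and 7 lower without GH, and 5 and 9 with GH (medians 0.09 and -0.13). Higher were Sesn1, a stress-inducible sestrin (1.62 ± 0.10 and 0.80 ± 0.10), Prdx4, the peroxiredoxin of the endoplasmic reticulum (1.42 ± 0.09 and 1.38 ± 0.09), and Selenop, the selenium carrier of plasma (1.25 ± 0.08 and 1.31 ± 0.08). Lower were the sestrin gene Sesn2 (-2.06 ± 0.09 in both states), the mitochondrial glutaredoxin gene Glrx2 (-1.51 ± 0.13 and -1.56 ± 0.13) and the methionine sulfoxide reductase gene Msrb3 (-1.02 ± 0.09 and -0.93 ± 0.09), also named after their values were seen.

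Genes that make superoxide were lower in null cells for the most part. Of 9 measured, 2 were higher and 6 lower without GH, and 1 and 6 with GH (medians -1.68 and -2.23, against 0.03 and -0.02 for all genes). The phagocyte NADPH oxidase subunit genes Ncf1 (-2.93 ± 0.10 and -3.73 ± 0.10) and Ncf4 (-2.93 ± 0.13 and -3.01 ± 0.13) and the GTPase gene Rac2 (-2.47 ± 0.10 and -2.58 ± 0.10), all leukocyte genes, were lower. Cybb, the catalytic subunit of the same oxidase, stood at 8.45 and 8.05 on the control arrays without GH and at a dim level in null cells. Nox4, an oxidase of fibroblasts and other non-phagocytic cells, was lower as well (-1.68 ± 0.12 and -2.23 ± 0.12). Xdh, xanthine dehydrogenase, was higher (2.26 ± 0.11 and 1.92 ± 0.11). The 10 macrophage and leukocyte markers moved with this list, with median differences of -2.56 and -3.05, and their part in it was not tested.

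**Figure D5:**
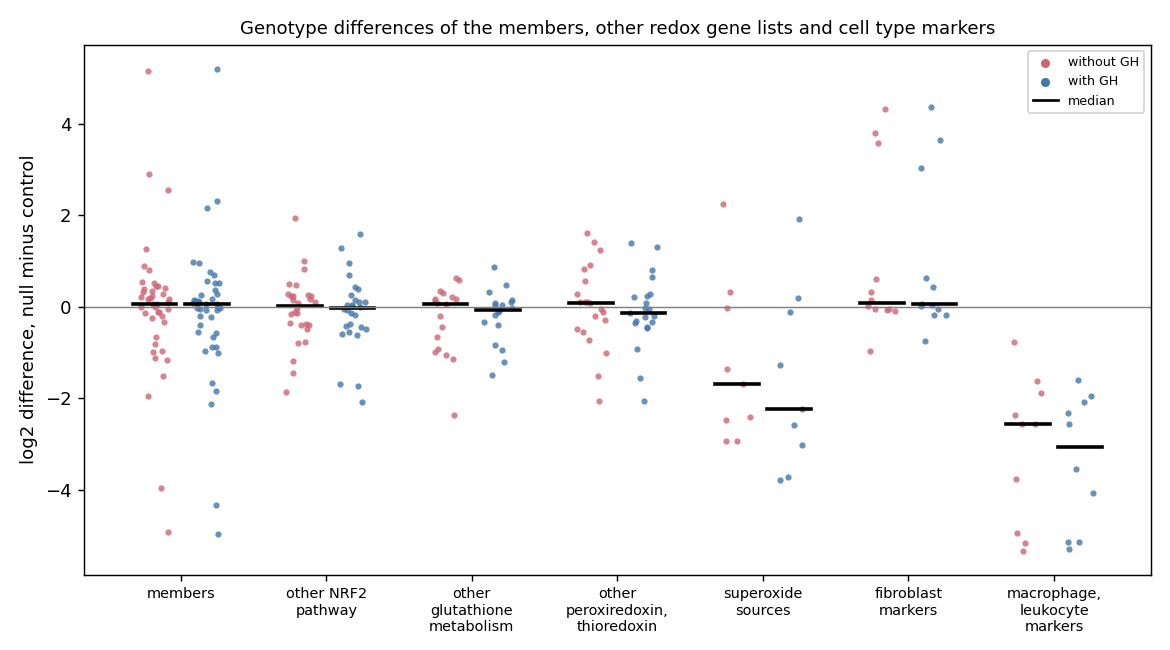
Log2 difference between null and control cells (vertical axis) for each gene (points) of the 43 genes, 4 further redox lists and 2 marker lists, without GH (red) and with GH (blue), with bars at list medians. The superoxide sources (medians -1.68 and -2.23) and the macrophage and leukocyte markers (-2.56 and -3.05) lie mostly below 0, and the 43 genes spread to both sides of 0.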

How the data were processed

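Expression was measured on 8 arrays, 2 in each of 4 groups named from the array titles. For 1 null array without GH the title gives replicate 2 and the source label replicate 3, so the title decided. The authors deposited log2 values, made with Partek 6.10.0511 and RMA per the submitters' processing notes, which give no settings. RMA equalises array distributions, so a change shared by most genes would not be seen. Of 45101 probe sets, 64 controls were left out, 34945 named 1 gene, and the one with the highest mean stood for each of 18193 genes. Symbols followed the RefSeq gene table.

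The model, fitted to all 8 arrays with limma 3.58.1 in R 4.3.3, held a mean for each group and left 4 residual degrees of freedom. Precision is limited by the number of arrays (median residual SD 0.0971). The script was tested on simulated data. Values on every array are given for the 12 called genes with the largest average genotype difference, the genes called for GH, and 12 core genes; from the 4 further lists together, up to 5 genes per direction with the largest called difference were named per genotype comparison and up to 3 per other comparison, plus a few chosen after their values were seen. The genes and lists were chosen with earlier results of these data known. Alternatives were a replicate block, the mean of a gene's probe sets, a filter on dim genes, quantile normalization, median centring, a 1.5-fold minimum, other variance moderation, only the 4 arrays compared and leaving out each array.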

Additional observations from a re-analysis of the deposited data

Results flagged for a closer look

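The effect of GH on Sod2 differed between the genotypes by the interaction test, with a response in null cells that was larger than that in control cells by 1.06 on the log2 scale. The effect of GH on Nqo1 differed by the same test, at -0.68, with values of 0.29 in control cells and -0.39 in null cells. The causes were not tested.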

How the results depend on the processing

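No call of a member changed direction under any alternative. Against a 1.5-fold minimum change, 33 of the 59 calls were lost, leaving 12 genes for null against control without GH (14.3% of all genes passed), 13 with GH (13.3%), 1 for GH in null cells (Sod2; 0.797%) and 0 for the interaction (0.495%). Leaving out each array gave counts of 22 to 26 and 22 to 26 for the genotype comparisons, 0 to 1 for GH in control cells, 2 to 8 for GH in null cells and 2 to 3 for the interaction. Each of these fits left 1 group with 1 array, and the share of all genes called moved in each of them too. The ranges therefore do not describe the 43 genes apart from all genes. GH in control cells gave 2 calls with the mean of a gene's probe sets (Gclc and Sod2), where 2.73% of all genes were called. With dim genes left out it gave 1 (Gstm1), against 3.58% of all genes kept. Trend and robust variance gave 3 (Gstm1, Nfe2l2 and Sod3), against 3.18% of all genes. For the interaction that last setting gave 5 calls, against 6.88% of all genes. The causes were not tested. With the replicate number as a block, 4 genes were called for GH in null cells (9.42% of all genes), and Mgst3 with GH was lost (adjusted p = 0.0659). Of the calls of the 43 genes, the block changed no other. The deviations of same-numbered arrays from their group means correlated between -0.279 and 0.129. With 2 arrays per group, and 1 array whose title and source label differ in the number, this cannot decide whether equal numbers share a culture or day. Under settings other than leaving out an array, calls were also gained for Gstm3, Gstm7, Sod2, Gpx1 and Gstp1 without GH, for Cat, Gstm6 and Gstm7 with GH, for Gpx3, Gstk1, Mgst3 and Txnrd1 under GH in null cells, and lost for Gstp3 without GH, Mgst3 and Sod3 with GH, and Gstz1 and Nfe2l2 under GH in null cells. Rescaling moved the median of all genes by at most 0.037.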

Other observations

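Several redox genes outside the 43 responded to GH. In null cells Maff, a small MAF partner of NRF2, rose (1.46 ± 0.10, adjusted p = 1.72e-06), as did Ggct, which degrades gamma-glutamyl peptides (1.06 ± 0.10), and the prostaglandin synthase gene Ptges (0.90 ± 0.11). Txnip, an inhibitor of thioredoxin, fell (-1.15 ± 0.10, adjusted p = 1.49e-05), as did Trib3 (-1.15 ± 0.09) and Cth, which makes cysteine (-0.70 ± 0.09). In control cells the phagocyte oxidase genes Cybb (1.29 ± 0.17) and Ncf1 (1.00 ± 0.10) rose, and Chac1 (-1.36 ± 0.10) and Trib3 (-0.65 ± 0.09) fell. The interaction test was passed by Maff (1.32 ± 0.14), Chac1 (1.15 ± 0.14), Ggct (0.88 ± 0.14), Txnip (-1.03 ± 0.14), Sesn1 (-0.82 ± 0.14), Ncf1 (-0.79 ± 0.14) and Cybb, which was dim in null cells. Counts of genes that rose and fell in null cells were 2 and 3 of the 28 NRF2 pathway genes, 2 and 2 of the 18 glutathione metabolism genes, 0 and 3 of the 21 peroxiredoxin, thioredoxin and glutaredoxin genes, and 0 and 1 of the 9 superoxide sources. Of all genes, 5.36% rose and 6.35% fell. The genotype comparison without GH gave 1 higher and 0 lower of 6 epithelial markers, 0 and 2 of 6 endothelial markers, and 3 and 1 of 5 adipocyte markers, with Lpl at 2.26 and Pparg at -0.64. In that comparison 24.8% of all genes were higher and 22.7% lower.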
